A study of Bos taurus with 10 samples.

Results

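Transcripts of the transforming growth factor beta (TGF-beta) and bone morphogenetic protein (BMP) pathways were examined in mammary tissue of dairy cows, in udder glands that neighbored a gland infected with Escherichia coli and in glands of healthy cows. The genes were taken from a list of 52 names that covers ligands, ligand-storage proteins, receptors, secreted antagonists, SMAD proteins, intracellular regulators and target genes. The list was chosen with earlier results of these data known, among them that of PMEPA1. Every probe set whose only symbol in the platform annotation was one of these names was used. This gave 33 of the 52 genes on 46 of the 24016 probe sets of the array. The other 19 genes (BMP6, INHBB, GDF15, LTBP3, LTBP4, TGFBR3, ACVR1B, FSTL1, GREM1, NBL1, SMAD1, SMAD6, SMAD7, SMURF1, SMURF2, SKI, SKIL, ZFYVE9 and ID4) were not analysed here.

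Ligands of this family are secreted in a latent or antagonized form and bind pairs of type I and type II receptor kinases. TGF-beta and activin receptors phosphorylate SMAD2 and SMAD3, BMP receptors phosphorylate SMAD1, SMAD5 and SMAD9, and both groups of SMADs enter the nucleus with SMAD4. In the mammary gland TGF-beta is known as a brake on epithelial growth and on milk protein expression, and as an inducer of matrix genes in the stroma.

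The neighboring group held 5 primiparous, midlactating German Holstein cows that had received 500 CFU of E. coli 1303 in 2 ml of saline into another gland of the udder 24 h earlier, and the healthy group held 5 such cows that were not treated. All 10 cows had been synchronized in oestrus and milked out with oxytocin. Each array carried RNA from 1 cow. Neighboring 1, 2, 3 and 5 were pools of a saline-treated and an untreated gland, whereas neighboring 4 came from a single untreated gland. Healthy 1, 2 and 4 were pools of a pair of glands, and healthy 3 and 5 are listed as a single gland.

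The values are log2 intensities after RMA (robust multi-array average), in which 1 unit is a 2-fold step. The methods of the study set aside neighboring 5, whose profile grouped with the controls, and healthy 3 as a technical outlier. Differences are therefore given for the other 8 arrays (4 against 4), with those for all 10 arrays beside them, always as neighboring minus healthy with the standard error. A gene passed when the adjusted p of limma was under 0.05. Probe sets in the dimmest 40% (mean under 5.71) were left out of the test, and a gene with several probe sets was represented by the brightest.

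The array medians lay between 6.25 and 6.28. Casein genes, the markers of lactating epithelium, were bright on every array, and CSN2 averaged 14.77 in neighboring and 14.68 in healthy glands (n = 4 each). The medians of the 9 hybridization control probe sets, which report on the array procedure and not on the tissue, were 9.60, 9.85, 9.65, 9.86 and 10.22 on neighboring 1 to 5, against 10.39, 10.19, 10.08, 9.91 and 10.35 on healthy 1 to 5. Over the 8 arrays they differed by -0.47 (exact permutation test over the arrays, two-sided, p = 0.0286, which is the lowest value 4 against 4 arrays can reach). The results that change when they enter the fit are named below.

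Of the 33 genes, 22 were tested and 11 were measured only by probe sets under the intensity limit. SMAD5 was higher in neighboring glands, TGFB1 and PMEPA1 were lower, and 19 genes did not pass. The 3 genes make 13.6% of those tested, against 31.6% of all 7055 genes tested (20.2% higher and 11.5% lower). With all 10 arrays the same 3 genes passed, against 13.3% of all genes (8.26% higher and 5.02% lower). Counted by single probe sets, 4 of 27 passed (2 higher and 2 lower), against 29.7% of all 14409 probe sets tested (17.7% higher and 12% lower). On all 10 arrays 3 of 27 passed (1 higher and 2 lower), against 12.5% of all (7.16% higher and 5.37% lower). The median difference over the 22 genes was -0.04, and 0.06 over all genes. In absolute size the median was 0.17 for the 22 genes and 0.25 for all genes. For 11 of the 22 genes the 95% interval of the difference lay within 0.5 of 0 on either side, as it did for 3153 of the 7055 genes.

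**Figure D1:**
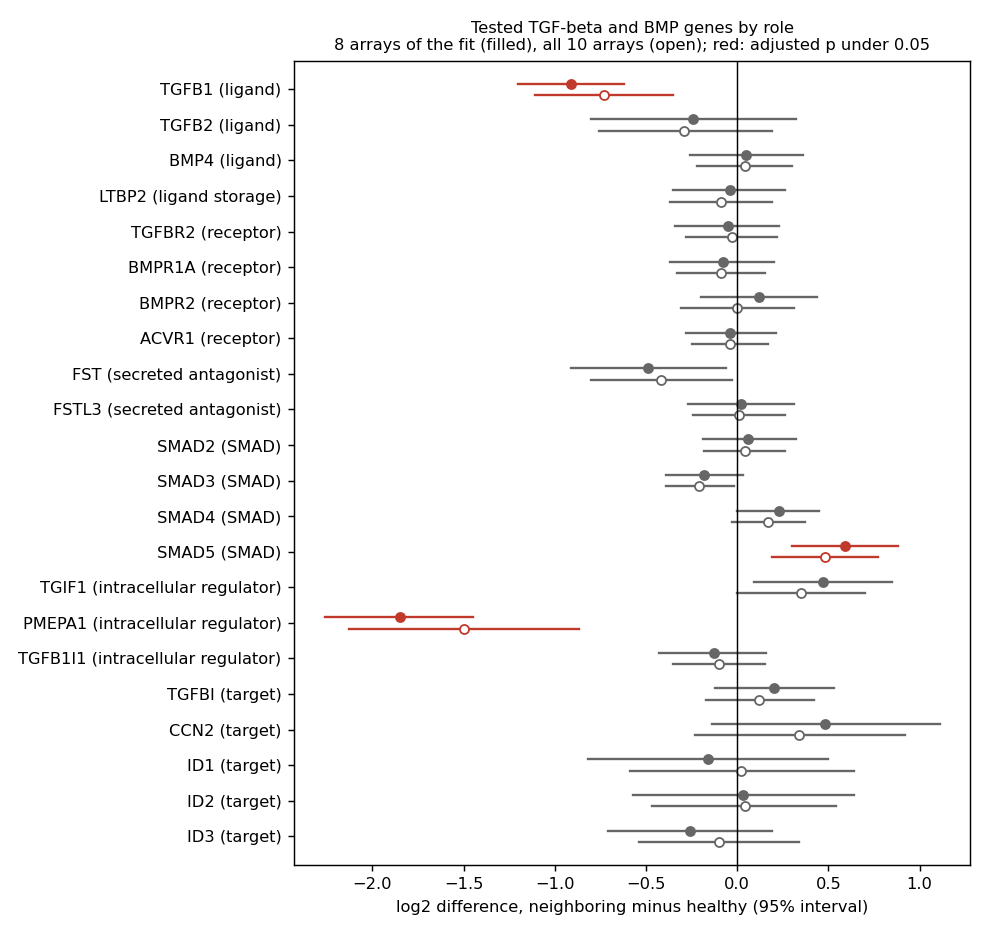
Log2 difference, neighboring minus healthy (x axis), with its 95% interval for each of the 22 tested genes, ordered by role (y axis). Filled points are the 8 arrays of the fit and open points all 10 arrays, and red marks an adjusted p under 0.05. TGFB1, PMEPA1 and SMAD5 stand off 0 in both, and the 4 receptors lie within 0.5 of 0.

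Among the ligands, TGFB1, which encodes the most widely made of the TGF-beta isoforms, was lower in neighboring glands. Its values were 6.70, 6.92, 6.56, 6.50 and 7.47 on neighboring 1 to 5, against 7.50, 7.55, 7.50, 7.87 and 7.40 on healthy 1 to 5. The 4 neighboring arrays of the fit lay below every healthy array, while neighboring 5 lay inside the healthy range. The group means were 6.67 ± 0.19 in neighboring and 7.58 ± 0.20 in healthy glands (SD, n = 4 each). The difference was -0.91 ± 0.13, or 0.532 times the healthy level (95% interval -1.20 to -0.62, limma adjusted p = 0.00109). With all 10 arrays it was -0.73 ± 0.17 (adjusted p = 0.029). TGFB1 still passed with the hybridization controls in the fit of 8 arrays (-1.18, adjusted p = 0.0446), but not when they were added to all 10 (-0.55, adjusted p = 0.472).

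TGFB2, a second isoform, and BMP4, a BMP made mostly by mesenchymal cells, did not pass. TGFB2 was spread widely within both groups, between 7.04 and 8.30 in neighboring and between 7.52 and 8.20 in healthy glands, and differed by -0.24 ± 0.25 (adjusted p = 0.486). For BMP4 the ranges were 5.72 to 6.26 in neighboring and 5.72 to 6.09 in healthy glands, with a difference of 0.05 ± 0.14 (adjusted p = 0.805).

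INHBA encodes the inhibin beta A subunit, which forms activin A as a homodimer and inhibin A together with the INHA product. Its only probe set lay under the intensity limit, so it was tested only in the fit on all 24016 probe sets, where 20.3% passed (11.1% higher and 9.21% lower). The values were 4.97, 5.20, 5.06, 4.93 and 5.45 on neighboring 1 to 5, against 5.92, 5.84, 5.70, 5.87 and 5.81 on healthy 1 to 5. Every neighboring array, neighboring 5 included, was below every healthy array. The difference was -0.82 ± 0.10, or 0.565 times the healthy level (adjusted p = 0.000447), and -0.71 ± 0.11 with all 10 arrays (adjusted p = 0.0149), where 6.90% of the 24016 probe sets passed (3.86% higher and 3.04% lower). With the hybridization controls in the fit of 8 arrays the difference was -0.79 ± 0.18, about as large but with a wider error, and did not pass (adjusted p = 0.0906), and on all 10 arrays it was -0.54 ± 0.13 (adjusted p = 0.356). Close to background an RMA difference is compressed, so that its size is uncertain.

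The other ligands under the limit were TGFB3, the third TGF-beta isoform, BMP2 and BMP7, which are osteogenic BMPs, and INHA, the inhibin alpha subunit. TGFB3 differed by -0.36 (adjusted p = 0.147), BMP2 by -0.30 (0.0988) and INHA by -0.27 (0.17) in the fit without the limit. The brighter of the BMP7 probe sets differed by 0.01 (adjusted p = 0.95). None of these passed, and in each the neighboring and healthy arrays overlapped.

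The ligand-storage proteins on the array were LTBP1, which tethers latent TGF-beta to the matrix, and LTBP2, a microfibril-associated relative. LTBP2 was tested and differed by -0.04 ± 0.14 (adjusted p = 0.828), and its second probe set by 0.17 ± 0.11 (0.237). LTBP1 was under the limit and differed by -0.24 (adjusted p = 0.247). With all 10 arrays LTBP2 differed by -0.09 (adjusted p = 0.63) and LTBP1 by -0.34 ± 0.14 (unadjusted p = 0.0267, limma adjusted p = 0.128), so that neither gene passed.

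None of the 4 tested receptors of the list passed the limma test, and none had an unadjusted p under 0.05. The co-receptor ENG, one of the further pathway genes described below, was lower (-0.47 ± 0.12, adjusted p = 0.0143). It also passed with all 10 arrays (-0.43, adjusted p = 0.0436). The type I receptor ACVRL1 of those genes did not pass (-0.15 ± 0.11, adjusted p = 0.323). TGFBR2, the type II receptor that binds TGF-beta first, had 10.11, 9.72, 9.67, 9.92 and 10.05 on neighboring 1 to 5, against 10.04, 10.01, 9.99, 9.66 and 9.92 on healthy 1 to 5. The groups covered almost the same range. The difference was -0.05 ± 0.13 (95% interval -0.34 to 0.23, adjusted p = 0.773).

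Of the BMP receptors, the type I receptor BMPR1A differed by -0.08 ± 0.13 (adjusted p = 0.643) and the type II receptor BMPR2 by 0.12 ± 0.14 (adjusted p = 0.546). ACVR1, a type I receptor for BMPs and activins, differed by -0.04 ± 0.11 (adjusted p = 0.83). For these 3 genes and TGFBR2 the 95% interval stayed within 0.5 of 0. On neighboring 1 BMPR2 was 6.82, above all 9 other arrays, which lay between 6.02 and 6.49.

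TGFBR1, the type I receptor that phosphorylates SMAD2 and SMAD3, was under the limit. It had 4.93, 4.98, 4.42, 5.19 and 4.70 on neighboring 1 to 5, against 4.40, 4.89, 4.83, 4.64 and 4.96 on healthy 1 to 5. The groups overlapped throughout, and the difference was 0.15 ± 0.17 (adjusted p = 0.551). BMPR1B, a type I BMP receptor, differed by -0.42 ± 0.14 without passing (adjusted p = 0.0574), the lowest value among the genes under the limit besides INHBA. The activin type II receptors ACVR2A and ACVR2B and the decoy receptor BAMBI differed by 0.01, 0.32 and 0.08, with overlapping groups.

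Among the secreted antagonists, FST encodes follistatin, which binds and neutralizes activin. Its values were 8.30, 8.50, 8.52, 8.43 and 8.88 on neighboring 1 to 5, against 9.24, 9.14, 9.01, 8.26 and 9.06 on healthy 1 to 5. All healthy arrays but healthy 4 were above all neighboring arrays, and healthy 4 was the lowest of the 10. The difference was -0.49 ± 0.19 and did not pass (adjusted p = 0.078; -0.42 with all 10 arrays, adjusted p = 0.127). Without healthy 4 it was -0.71 and passed (adjusted p = 0.00285). FST also passed when the 8 arrays were normalized anew, by cyclic loess (-0.58, adjusted p = 0.0406) or by quantiles (-0.57, adjusted p = 0.0413). With the hybridization controls in the fit of 8 arrays the difference was 0.21 (adjusted p = 0.703). FSTL3, a second activin-binding antagonist, differed by 0.02 ± 0.13 (adjusted p = 0.929).

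**Figure D2:**
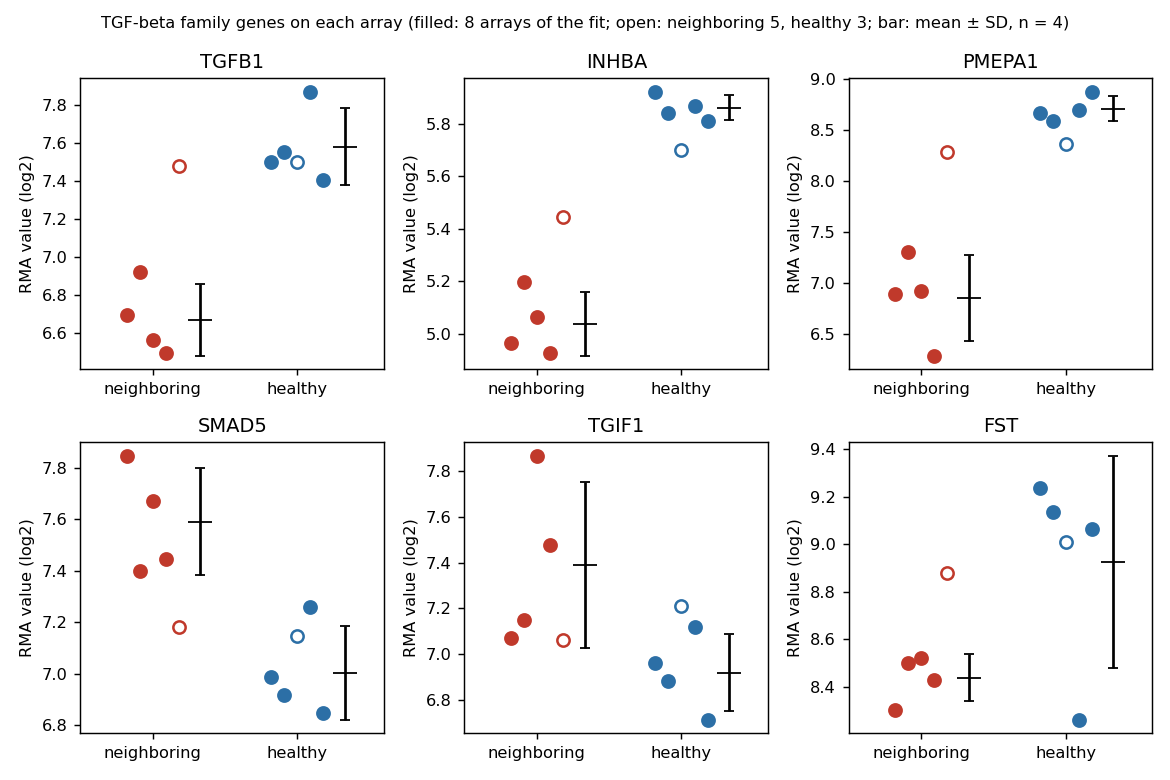
RMA values (log2, y axis) of 6 genes on each array, with neighboring arrays on the left in red and healthy arrays on the right in blue. Filled points are the 8 arrays of the fit, open points are neighboring 5 and healthy 3, and bars are the mean ± SD of the 4 filled points. For TGFB1 and SMAD5 neighboring 5 lies among the healthy arrays, for INHBA and PMEPA1 below them, and for FST healthy 4 lies at 8.26, below the other healthy arrays.

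SMAD5, which carries BMP signals, was the only tested gene of the list that passed and was higher in neighboring glands. It had 7.85, 7.40, 7.67, 7.44 and 7.18 on neighboring 1 to 5, against 6.99, 6.92, 7.15, 7.26 and 6.84 on healthy 1 to 5. The 4 neighboring arrays of the fit were above every healthy array, and neighboring 5 was inside the healthy range. The means were 7.59 ± 0.21 in neighboring and 7.00 ± 0.18 in healthy glands (SD, n = 4 each), with a difference of 0.59 ± 0.13 (1.50-fold, adjusted p = 0.00863; 0.48 ± 0.13 with all 10 arrays, adjusted p = 0.0405).

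A dimmer SMAD5 probe set, under the limit, pointed the other way without passing (-0.38 ± 0.16, adjusted p = 0.114). The call of the brighter probe set was lost when neighboring 5 alone was put back, at a difference of 0.51 ± 0.14 (adjusted p = 0.0516). With the hybridization controls in the fit the difference shrank to 0.15 ± 0.18 (adjusted p = 0.711).

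SMAD4, the common partner of the receptor-activated SMADs, had 9.90, 9.56, 9.79, 9.63 and 9.58 on neighboring 1 to 5, against 9.46, 9.60, 9.63, 9.48 and 9.43 on healthy 1 to 5. The highest values were on neighboring 1 and 3 and the rest overlapped, with a difference of 0.23 ± 0.10 (adjusted p = 0.121).

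SMAD2, a carrier of TGF-beta and activin signals, had 8.08, 7.57, 7.80, 7.73 and 7.63 on neighboring 1 to 5, against 7.79, 7.75, 7.69, 7.71 and 7.68 on healthy 1 to 5. The healthy values lay close together and inside the neighboring range, and the difference was 0.06 ± 0.11 (adjusted p = 0.701).

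SMAD3, the other carrier of these signals, had 6.40, 6.50, 6.26, 6.39 and 6.24 on neighboring 1 to 5, against 6.48, 6.62, 6.58, 6.49 and 6.66 on healthy 1 to 5. Healthy arrays were mostly the higher ones, with a narrow overlap, and the difference was -0.18 ± 0.09 (adjusted p = 0.18). A dimmer SMAD3 probe set under the limit gave the opposite sign and passed in the fit without the limit (0.38 ± 0.11, adjusted p = 0.035), although not with all 10 arrays (0.33, adjusted p = 0.116). The direction of SMAD3 therefore differed between its probe sets, as it did in 7 of the 12 genes that had several.

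Among the intracellular regulators, PMEPA1 showed the largest difference of the 22 genes. It encodes a membrane protein that binds SMAD2 and SMAD3 and holds them back from the receptor, and it is itself a well-known target of TGF-beta. Its values were 6.90, 7.31, 6.93, 6.29 and 8.29 on neighboring 1 to 5, against 8.67, 8.59, 8.37, 8.70 and 8.88 on healthy 1 to 5. All neighboring arrays were below all healthy arrays, and neighboring 5 was just under the lowest of them, healthy 3.

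The means of PMEPA1 were 6.86 ± 0.42 in neighboring and 8.71 ± 0.12 in healthy glands (SD, n = 4 each). The difference was -1.85 ± 0.18, or 0.277 times the healthy level (95% interval -2.26 to -1.45, adjusted p = 0.000209), and -1.50 ± 0.29 with all 10 arrays (adjusted p = 0.0223). With the hybridization controls it was -1.88 on 8 arrays (adjusted p = 0.0399) and -0.99 on 10, where it did not pass (adjusted p = 0.435). PMEPA1 was also the only tested gene of the list to meet the stricter rule of the study's methods, an adjusted p under 0.01 and over 2-fold, which 2.76% of all tested probe sets met. With all 10 arrays no listed gene met it by limma, against 0.104% of all. On these arrays 5 of the 22 had an unadjusted limma p under 0.05, and so had 2444 of all 7055 genes. PMEPA1 was the only one of the 22 whose groups did not overlap over all 10 arrays, which held for 7.54% of all genes. Over the 8 arrays the groups did not overlap for 3 of the 22 genes and for 33.5% of all genes.

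TGIF1, a nuclear corepressor of SMAD2 and SMAD3, had 7.07, 7.15, 7.87, 7.47 and 7.06 on neighboring 1 to 5, against 6.96, 6.88, 7.21, 7.12 and 6.71 on healthy 1 to 5. Neighboring 3 and 4 were above all healthy arrays and the other neighboring arrays were among them. The difference of 0.47 ± 0.17 did not pass (adjusted p = 0.0602). It passed without neighboring 1 (0.58, adjusted p = 0.0317) or neighboring 2 (0.55, adjusted p = 0.0494), and was 0.31 without neighboring 3 (adjusted p = 0.137). The second probe set of TGIF1, 6.39, 6.43, 7.11, 6.68 and 6.14 on neighboring 1 to 5 and 6.03, 6.02, 6.06, 6.24 and 5.71 on healthy 1 to 5, passed with 0.65 ± 0.17 (adjusted p = 0.0173), but not with all 10 arrays (0.53, adjusted p = 0.0541). TGFB1I1, a focal adhesion protein induced by TGF-beta, differed by -0.13 ± 0.13 (adjusted p = 0.468).

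None of the 5 tested target genes passed the limma test, and none had an unadjusted p under 0.05. CCN2, a matrix-associated growth factor induced by TGF-beta, had 11.16, 11.09, 10.70, 10.87 and 10.27 on neighboring 1 to 5, against 11.33, 10.63, 10.48, 10.23 and 9.70 on healthy 1 to 5. The highest and the lowest value were both on healthy arrays, healthy 1 and healthy 5. The difference was 0.48 ± 0.28 (adjusted p = 0.215), and it depended on single arrays: without healthy 1 it was 0.77 and passed (adjusted p = 0.0275), and without healthy 5 it was 0.23 (adjusted p = 0.506). TGFBI, an extracellular matrix protein induced by TGF-beta, differed by 0.20 ± 0.15 (adjusted p = 0.314).

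The inhibitors of differentiation ID1, ID2 and ID3 are immediate targets of BMP signals. ID1 had 6.68, 8.46, 7.81, 7.77 and 7.86 on neighboring 1 to 5, against 7.90, 8.01, 7.12, 7.58 and 7.85 on healthy 1 to 5. ID2 had 7.65, 8.81, 8.72, 8.66 and 8.36 on neighboring 1 to 5, against 8.63, 8.37, 8.30, 8.85 and 7.86 on healthy 1 to 5. ID3 had 7.51, 8.46, 8.44, 8.28 and 8.42 on neighboring 1 to 5, against 8.52, 8.68, 7.84, 8.36 and 8.19 on healthy 1 to 5.

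In all 3 ID genes neighboring 1 was the lowest array of the 10, and for ID1 and ID3 healthy 3 was the lowest healthy array. The differences were -0.16 ± 0.30 for ID1 (adjusted p = 0.711), 0.03 ± 0.27 for ID2 (0.94) and -0.26 ± 0.20 for ID3 (0.341). Their intervals reached from -0.82 to 0.50, from -0.57 to 0.64 and from -0.71 to 0.19, so that these probe sets could not exclude changes of this size. A dimmer second probe set of ID2, also tested, had a narrower interval, from -0.07 to 0.35. Its difference was 0.14 ± 0.09 (adjusted p = 0.268).

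**Figure D3:**
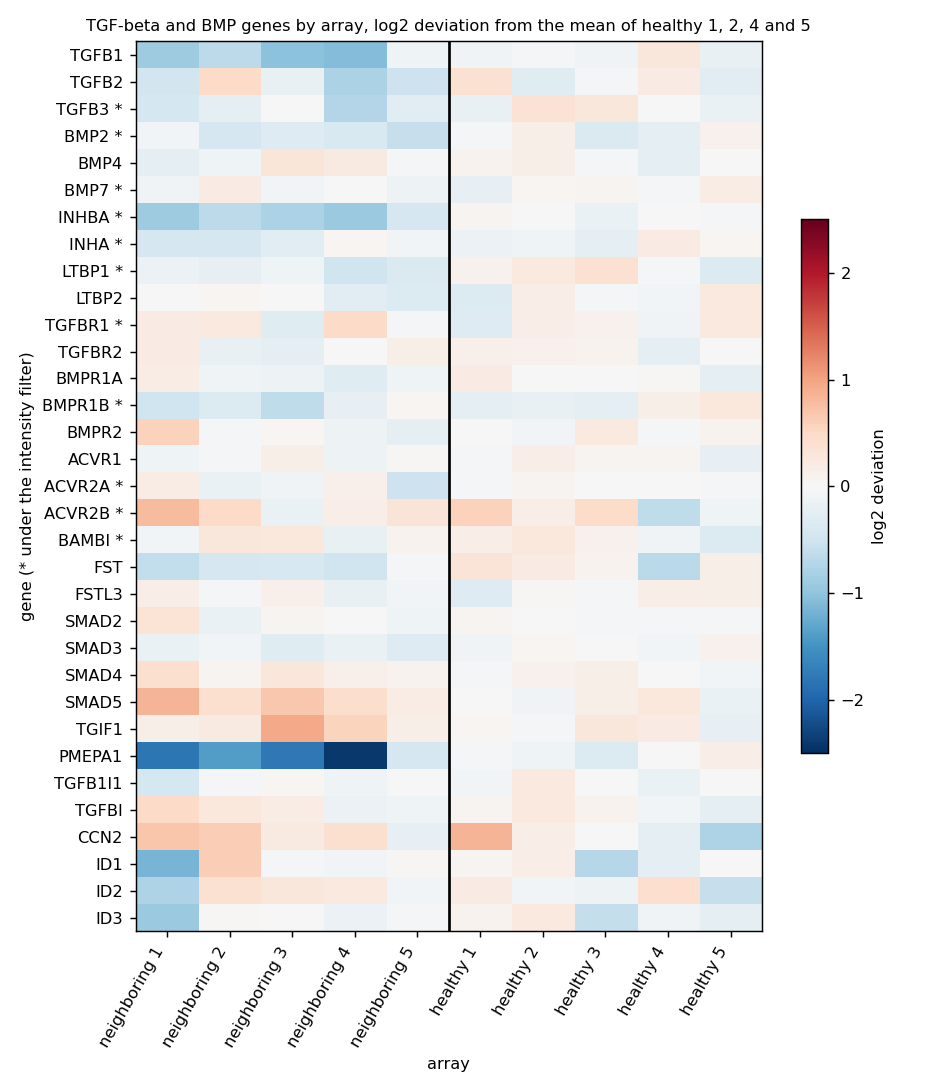
Log2 deviation of each array (x axis) from the mean of healthy 1, 2, 4 and 5 for the 33 genes on the array (y axis), blue below and red above that mean. A star marks the 11 genes under the intensity limit. PMEPA1, TGFB1 and INHBA are blue on neighboring 1 to 4 and paler on neighboring 5, and ID1, ID2 and ID3 are blue on neighboring 1.

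Further genes of the pathway were taken from a list of 66 modulators, further ligands and signal components, of which 26 were tested. In neighboring glands 6 were higher, 6 were lower and 14 did not pass, so that 46.2% passed, against 31.6% of all genes, with a median difference of -0.05. With all 10 arrays 3 were higher and 5 lower, against 8.26% higher and 5.02% lower among all genes. With neighboring 5 alone put back 1 was higher and 3 were lower. In that fit 1190 of all 14409 probe sets tested passed, against 4283 on the 8 arrays. With the hybridization controls in the fit of 8 arrays limma called 0 of the 26 higher and 0 lower. At an unadjusted limma p under 0.05, 3 were higher and 4 lower. All 12 calls ended there, but only 166 of the 14409 probe sets passed in that fit. The loss of calls was therefore not particular to these genes.

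The higher genes were led by ITGAV, the alpha V subunit of the integrins that release TGF-beta from its latent complex. It had 10.05, 9.16, 9.06, 8.90 and 7.57 on neighboring 1 to 5, against 7.85, 7.50, 8.13, 7.71 and 7.42 on healthy 1 to 5. Neighboring 1 to 4 were above all healthy arrays and neighboring 5 was among them. The difference was 1.67 ± 0.22 (3.19-fold, adjusted p = 0.00076; 1.22 with all 10 arrays, adjusted p = 0.0435).

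The ubiquitin ligase NEDD4L, which marks activated SMAD2 and SMAD3 for degradation, was higher by 0.98 ± 0.22 (1.97-fold, adjusted p = 0.00851). PPM1A, a phosphatase for SMADs, was higher by 0.72 ± 0.10 (1.65-fold, adjusted p = 0.000957), and USP15, a deubiquitinase of the pathway, by 0.62 ± 0.13 (1.54-fold, adjusted p = 0.00698). STRAP, an adaptor that assists SMAD7 at the receptor, was higher by 0.50 ± 0.14 (1.41-fold, adjusted p = 0.0233). With all 10 arrays PPM1A (0.54, adjusted p = 0.0357) and USP15 (0.50, 0.0488) still passed, whereas NEDD4L (0.69, 0.0847) and STRAP (0.34, 0.15) did not.

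Among the 6 lower genes, those with the largest differences encode matrix proteins that bind or store TGF-beta. The proteoglycan FMOD differed by -1.18 ± 0.23 (adjusted p = 0.00496), the microfibril protein FBN1 by -0.79 ± 0.21 (adjusted p = 0.0194) and the proteoglycan BGN by -0.52 ± 0.12 (adjusted p = 0.0121). Other matrix genes of the same list did not pass, namely DCN at -0.09 ± 0.17 (adjusted p = 0.704), THBS1 at 0.01 ± 0.10 (0.975) and EMILIN1 at 0.00 ± 0.10 (0.987). FBN1 was 9.43, 9.35, 9.50, 8.73 and 9.26 on neighboring 1 to 5, against 9.98, 10.52, 10.26, 10.09 and 9.59 on healthy 1 to 5. Its groups did not overlap over the 10 arrays, and FBN1 (-0.83, adjusted p = 0.0258) and FMOD (-1.06, 0.0272) also passed on all 10, while BGN did not (-0.41, 0.0509). The other lower genes do not encode matrix proteins. They were FKBP1A at -0.48 ± 0.11 (adjusted p = 0.0111), ENG at -0.47 ± 0.12 (0.0143) and ZEB1 at -0.44 ± 0.11 (0.0172). Each of them also passed on all 10 arrays (adjusted p = 0.0428, 0.0436 and 0.0331).

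**Figure D4:**
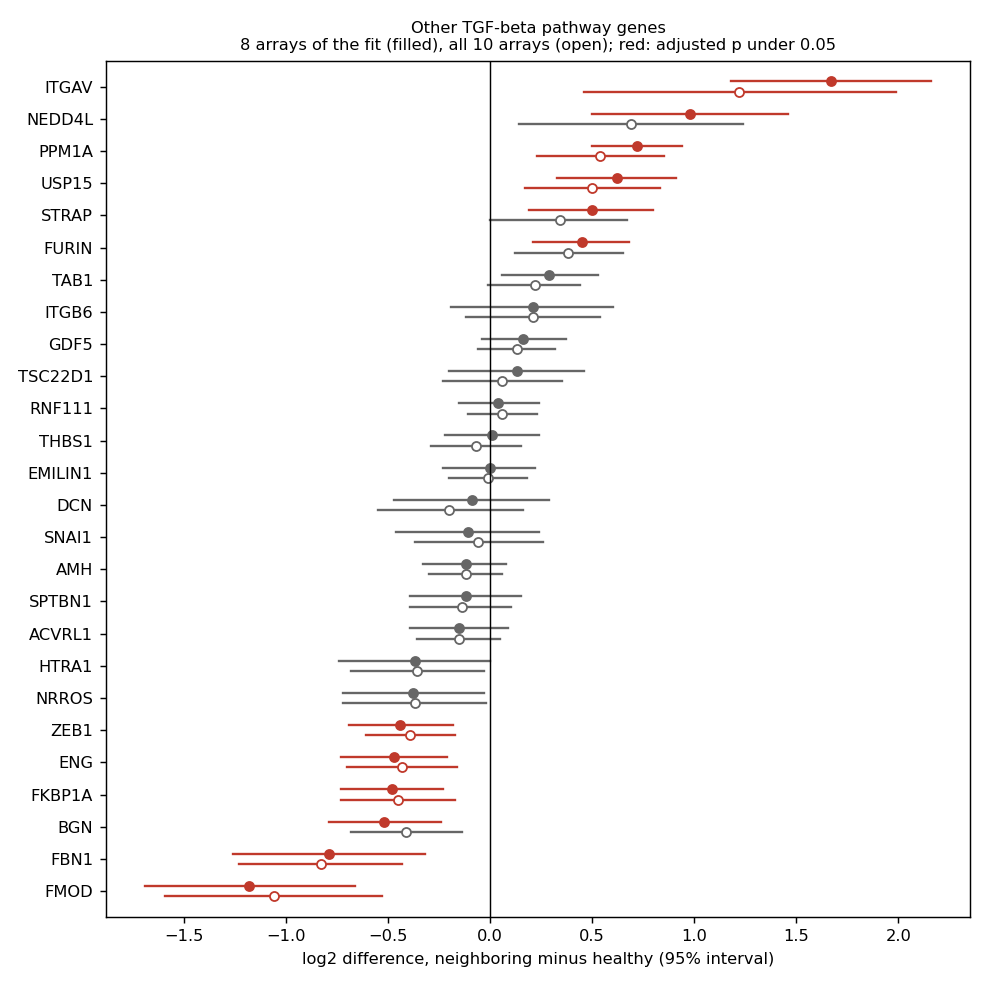
Log2 difference, neighboring minus healthy (x axis), with its 95% interval for the 26 further pathway genes tested, sorted by size (y axis). Filled points are the 8 arrays of the fit and open points all 10 arrays, and red marks an adjusted p under 0.05. ITGAV lies farthest to the right at 1.67 and FMOD farthest to the left at -1.18.

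Markers of the cell types of the gland also differed between the groups. In bulk tissue, fewer cells of a type and less RNA per cell cannot be told apart. The counts that follow are from the 8 arrays, on which 20.2% of all genes were higher and 11.5% lower, with the counts of all 10 arrays beside them, on which 8.26% were higher and 5.02% lower. The summed linear levels cover all 10 arrays and every marker on the array, those under the intensity limit included. Of 9 fibroblast markers tested, 1 was higher and 3 were lower in neighboring glands (1 higher and 5 lower with 10 arrays). On 8 arrays the higher marker was PDGFRA (0.50, limma adjusted p = 0.0167), and the lower ones were the matrix genes COL1A1, COL3A1 and LUM. PDGFRB (-0.20), THY1 (0.15) and DCN (-0.09) passed in neither fit. The fibroblast sums, in which the collagen gene COL3A1 was the brightest, were 4596 to 8636 in neighboring and 9511 to 13898 in healthy glands, without overlap. They therefore reflect matrix transcripts in large part, and fibroblast number was not measured. Of 8 myoepithelial and smooth muscle markers, 5 were lower (3 with 10 arrays) and none was higher by limma or at an unadjusted p under 0.05 in either fit, with sums of 7709 to 11616 in neighboring and 10914 to 17578 in healthy glands.

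Of 4 macrophage markers, 2 were lower in both fits, MSR1 (-1.90 on 8 arrays) and CD14 (-1.08). The other 2 did not pass, CD68 at 0.10 (limma adjusted p = 0.717) and CSF1R at -0.07 (0.743). The macrophage sums, in which CD14 was the brightest gene, were 951 to 1865 in neighboring and 2274 to 3161 in healthy glands. Of 3 neutrophil markers, 2 were higher in both fits, with sums of 427 to 980 in neighboring and 157 to 247 in healthy glands. Of 5 T and B cell markers, 3 were lower on 8 arrays and 0 by limma on 10 (3 at an unadjusted p under 0.05). The T and B cell sums overlapped, at 464 to 826 in neighboring and 689 to 776 in healthy glands. Of 9 luminal epithelial markers, 1 was higher and 1 lower (0 higher and 1 lower by limma with 10 arrays, 1 and 1 at an unadjusted p under 0.05), with sums of 113964 to 119923 in neighboring and 118512 to 126740 in healthy glands.

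Of 6 endothelial markers 1 was lower in both fits, and of 2 adipocyte markers 1 was lower on 8 arrays and 0 by limma on 10 (1 at an unadjusted p under 0.05), counts too small to set against the shares of all genes. The defining markers KRT8 of luminal cells, POSTN of fibroblasts, VWF and KDR of endothelium, ADIPOQ, LEP and CIDEC of adipocytes, MMP9 of neutrophils and CD79A and MS4A1 of B cells were under the intensity limit. DCN of the fibroblast and ENG of the endothelial markers are also among the 26 pathway genes. The part of these cell types in the values of TGFB1, PMEPA1, INHBA, FBN1 and FMOD was not tested.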

How the data were processed

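RNA of mammary tissue from 10 cows (TRIzol extraction, amplification, biotin label) was measured, and each cow gave 1 Affymetrix Bovine Genome Array. The deposited log2 values were made by the authors with RMA, which corrects the background, quantile normalizes all arrays and summarises the probes of a set. A change shared by most transcripts is not seen in such values, and differences of dim and very bright probe sets are compressed. Arrays have no read depth, so precision depends on how many there are. The 112 control probe sets were left out. Of 24016 probe sets, 13292 had 1 gene symbol in the platform annotation, 86 had several and 10638 had none, and 13263 symbols were checked against RefSeq through the gene identifier.

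Neighboring and healthy glands were compared by a linear model per probe set with moderated variances (limma 3.58.1, R 4.3.3; two-sided, Benjamini-Hochberg adjustment over all kept probe sets). The fit used neighboring 1, 2, 3 and 4 against healthy 1, 2, 4 and 5, following the study's exclusions, and was repeated with all 10 arrays. In place of the study's present calls, probe sets in the dimmest 40% by their mean of 10 arrays were dropped, which kept 14409 probe sets with 7055 genes. INHBA and the other genes under this limit were read from a fit on all 24016 probe sets.

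Values were printed per array for listed genes with an adjusted p under 0.05 and for SMAD2, SMAD3, SMAD4, TGFB1, TGFBR1 and TGFBR2. TGIF1, FST, CCN2, ID1, ID2 and ID3 were added after their values were seen. At most 8 further pathway genes, those passing with the largest differences, were named at first, with values per array for ITGAV and FBN1 only. ENG, FKBP1A, ZEB1 and ACVRL1 were added later. DCN, THBS1 and EMILIN1, which did not pass, were named beside the lower matrix genes. The members and lists were chosen with earlier results of these data known. Alternatives were other array sets, array weights, other filters and normalizations, robust variance estimates, the hybridization controls as covariate, the replicate number as block, the mean over probe sets and the removal of each array in turn. The replicate numbers do not pair cows, since each cow gave 1 array. On simulated data with 4 against 4 arrays and 14409 probe sets, limma called 62.0% of 50 probe sets changed 1.5-fold, 96.0% of 50 changed 2-fold, 98.0% of 50 changed 3-fold, 98.0% of 50 changed 6-fold and 12 of 14209 unchanged ones.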

Additional observations from a re-analysis of the deposited data

Results flagged for a closer look

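For each of the 22 tested genes and INHBA, the highest and lowest array of each group of 5 were set against the other 4, which made 46 groups. In 2 of them an array stood apart by Dixon's ratio (gap over range, critical value 0.71). Chance marks about 1 in 20 groups.

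FST, the activin antagonist, was 8.26 on healthy 4, while the other healthy arrays lay between 9.01 and 9.24 (ratio 0.766). ID3, a BMP target, was 7.51 on neighboring 1, while the other neighboring arrays lay between 8.28 and 8.46 (ratio 0.816).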

How the results depend on the processing

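TGFB1 and PMEPA1 kept their direction under every alternative run and failed to pass in 1 of 22, all 10 arrays with the hybridization controls as covariate (TGFB1 -0.55, adjusted p = 0.472; PMEPA1 -0.99, adjusted p = 0.435). SMAD5 passed in 18 of 22. INHBA passed in 17 of 19 and failed in the 2 with that covariate. Each passed when any 1 of the 8 arrays was left out. Over genes that passed, 77 results held and 8 fell short, none with the other sign; of those that had not passed, 53 changed sign, 8 came to pass and 352 did neither. The alternatives on all 10 arrays with the covariate, on pooled glands only, and for INHBA without filter were chosen after seeing the data.

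All 10 arrays gave ID1 0.02, 3 higher pathway genes and 1806 probe sets past the threshold, against 4283 on 8 arrays. With neighboring 5 put back, no listed gene was higher by limma (2 at an unadjusted p under 0.05) and 1190 probe sets passed. Array weights gave BMPR2 0.00, FSTL3 0.00, ID1 0.15, SMAD2 -0.01 and 2 higher listed genes. The mean of probe sets gave LTBP2 0.06 and 2 higher listed genes. Cyclic loess gave ID2 -0.06, LTBP2 0.00 and SMAD2 -0.01, and quantile normalization again gave FSTL3 0.00, ID2 -0.06 and SMAD2 -0.01. Pooled glands only gave BMP4 -0.01, ID2 -0.22, LTBP2 0.11 and 2483 probe sets.

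With the hybridization controls as covariate, BMPR2 was -0.06, FST 0.21, FSTL3 -0.34, ID1 0.59, ID3 0.01, SMAD2 -0.08, TGFB1I1 0.05 and TGFBR2 0.12. By limma no listed gene was higher (0 at an unadjusted p under 0.05), 0 pathway genes were higher and 0 lower (3 and 4 unadjusted), and 166 probe sets passed. On all 10 arrays with it, BMPR2 was -0.21, FSTL3 -0.15, ID1 0.43, ID3 0.14, SMAD2 -0.07, TGFB1I1 0.01, TGFBI -0.06 and TGFBR2 0.09, with 0 listed genes higher, 0 lower (0 and 2 unadjusted) and 2 probe sets.

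With the replicate number as block, BMP4 was -0.04, ID2 -0.24, LTBP2 0.01 and TGFBR2 0.01, 0 listed genes were higher by limma (1 unadjusted; SMAD5 adjusted p = 0.0938), 2 pathway genes were higher and 1481 probe sets passed. Same-numbered arrays did not deviate together (correlations -0.03, -0.03 and -0.05), so this block is no pairing. The causes of these changes were not tested.

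Leaving out 1 array gave ACVR1 -0.10 to 0.02, BMP4 -0.04 to 0.14, BMPR2 -0.03 to 0.20, FSTL3 -0.09 to 0.09, ID1 -0.42 to 0.18, ID2 -0.16 to 0.30, LTBP2 -0.16 to 0.03, SMAD2 -0.03 to 0.14, TGFBR2 -0.14 to 0.01 and 1 to 2 higher listed genes (2 without neighboring 1, neighboring 2 or healthy 1; CCN2 ran from 0.23 to 0.77). The lower listed genes were 3 without healthy 4, as FST passed. They were also 3, again with FST, under cyclic loess and under quantile normalization again. Dim signal limits INHBA, TGFBR1 and the other genes under the intensity limit.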
